A study of Homo sapiens with 4 samples.

Results

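The 40 genes described here act in the G2 phase of the cell cycle and in mitosis, and most of their products build or control the mitotic spindle. They were taken by gene symbol from a fixed list, and all 40 were found among the 33538 genes of the count matrices. Their RNA was measured by single-cell RNA sequencing (scRNA-seq) in 4 libraries made from LNCaP cells and their derivatives, with 1 library per group. LNCaP is an androgen-sensitive human line established from metastatic prostate cancer, and enzalutamide (ENZ) is an anti-androgen used to treat this disease. The libraries ask how short drug exposure and acquired resistance change expression.

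The LNCaP library came from parental cells given 0.1% of the solvent DMSO for 48 h. LNCaP-ENZ48 was the same line after 48 h of 10 µM ENZ. RES-A and RES-B are ENZ-resistant sublines of LNCaP, both kept in 10 µM ENZ. Per the study's methods, RES-A arose by passaging LNCaP in rising ENZ doses and RES-B under the related compound RD-162. All groups share the LNCaP background and the same serum-containing medium, and each resistant subline is a single line, so a property of one line cannot be told apart from resistance. With 1 library per group no difference has a replicate check, so no test was run and no p-value is given. All intervals below are 95% intervals for counting error only.

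At the end of G2, cyclin B binds CDK1, and the active kinase drives the cell into mitosis. Microtubules then form the spindle, kinetochores attach chromosomes to it, and the spindle checkpoint holds back the anaphase-promoting complex until every chromosome is attached. Many of these genes are transcribed late in the cell cycle, through promoters with a CHR element (cell cycle genes homology region, TTTGAA) and CCAAT boxes bound by NF-Y, under the control of the DREAM and MuvB complexes with B-MYB and FOXM1.

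The promoter table from RefSeq (GRCh38.p14) held 34 of the 40 members, and lacked AURKA, BIRC5, TPX2, BUB3, TTK and UBE2C. The motifs TTTGAA and CCAAT were searched on both strands in the 250 bases before the first start listed for each gene. The motifs can share an end base, and a CCAAT that runs into its own reverse complement counts on both strands. TTTGAA was found in 16 of 34 member promoters (47.1%), against 13.6% of all 27305 promoters and 7.69% of the 7565 promoters of measured genes. CCAAT was found in 24 of 34 (70.6%), against 33.0% of all promoters and 36.6% of those of measured genes. Both motifs were found in 14 (41.2%), against 4.85% of all promoters and 3.34% of those of measured genes. The 200 bases before the start are shown for the members whose levels differed most in the resistant lines (CDK1, STMN1, CENPA, KIF23 and PRC1) and for TOP2A, used below to choose cells. Capitals mark TTTGAA and CCAAT in either direction (TTCAAA and ATTGG on the other strand). The sequences run 5′ to 3′ on the strand of the gene.
CDK1, chr10:60778131-60778330, plus strand: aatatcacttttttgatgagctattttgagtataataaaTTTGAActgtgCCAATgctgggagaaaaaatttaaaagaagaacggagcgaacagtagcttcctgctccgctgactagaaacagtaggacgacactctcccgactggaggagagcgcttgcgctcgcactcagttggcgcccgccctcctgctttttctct
STMN1, chr1:25906420-25906619, minus strand: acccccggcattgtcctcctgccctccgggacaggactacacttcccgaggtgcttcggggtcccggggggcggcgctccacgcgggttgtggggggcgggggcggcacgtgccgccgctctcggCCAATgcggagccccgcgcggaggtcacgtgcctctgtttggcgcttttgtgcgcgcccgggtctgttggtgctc
TOP2A, chr17:40417897-40418096, minus strand: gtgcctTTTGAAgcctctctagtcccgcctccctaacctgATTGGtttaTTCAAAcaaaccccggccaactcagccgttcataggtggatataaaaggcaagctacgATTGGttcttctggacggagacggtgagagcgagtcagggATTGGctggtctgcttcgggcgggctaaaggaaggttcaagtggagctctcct
CENPA, chr2:26785856-26786055, plus strand: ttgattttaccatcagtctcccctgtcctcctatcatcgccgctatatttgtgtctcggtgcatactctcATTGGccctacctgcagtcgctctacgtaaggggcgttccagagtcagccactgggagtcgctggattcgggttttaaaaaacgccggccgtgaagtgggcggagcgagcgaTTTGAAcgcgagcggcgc
KIF23, chr15:69414149-69414348, plus strand: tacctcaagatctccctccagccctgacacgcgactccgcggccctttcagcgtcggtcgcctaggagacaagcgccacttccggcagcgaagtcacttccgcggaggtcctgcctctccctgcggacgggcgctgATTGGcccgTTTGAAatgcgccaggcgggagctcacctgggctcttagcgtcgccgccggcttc
PRC1, chr15:90994536-90994735, minus strand: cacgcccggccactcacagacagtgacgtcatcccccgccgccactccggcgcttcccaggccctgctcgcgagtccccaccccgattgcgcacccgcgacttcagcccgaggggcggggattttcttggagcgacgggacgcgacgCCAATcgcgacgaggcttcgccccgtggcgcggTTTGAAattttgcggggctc
CDK1, CENPA, KIF23 and PRC1 each hold 1 TTTGAA in these bases, TOP2A holds 2, and STMN1 holds a CCAAT box and no TTTGAA. A match is a description of the sequence and not of a bound site. CDK1 has 2 starts in the table and STMN1 has 3, and other starts were not searched.

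After filtering, 14727 cells were kept, 1782 in LNCaP and 4061 to 4569 in each of the others, with 50208831 to 60838227 UMIs (unique molecular identifiers, 1 per captured RNA molecule) per library. LNCaP cells were deeper, with a median of 27079.5 UMIs against 12138 to 13676, and the study's UMI limits were also higher for LNCaP. Levels are UMIs scaled to the library total (counts per 1000000 UMIs, CPM). Where 4 values are given for a gene, LNCaP comes first, then LNCaP-ENZ48, then RES-A, and RES-B last. Of the prostate luminal markers, KRT8, KRT18, HOXB13 and FOLH1 were present at 92.0 CPM or more in every library, while KLK2 and KLK3 were at 5 and 2 UMIs in RES-A. Of the markers of other cell types, PTPRC, CD3E and COL1A2 had 0 UMIs in all 4 libraries. COL1A1 was the highest, at 1.45 to 3.19 CPM. All 40 members passed the minimum of a mean of 5 CPM over the 4 libraries, as did 9585 genes in all.

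Short ENZ exposure went with lower levels of every member in the sum of all cells. The 40 log2 CPM ratios of LNCaP-ENZ48 to LNCaP ran from -1.08 for CENPE to -0.10 for STMN1, and all 40 intervals lay below 0. Intervals below 0 were not counted over all genes, so that number has no background share. The median was -0.62, against -0.08 over all 9585 genes. A gene is counted as past the fold where its log2 ratio is at least 0.5 in size. By this count 31 of 40 members were lower, against 5.84% of all genes, and 0 were higher, against 1.94%. In summed counts, fewer cells of a type and less RNA per cell cannot be told apart. Levels within chosen cells are given further below.

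Among the cyclins, CDK1 and its partners, 3 of 8 were lower past the fold. CDC25C, the phosphatase that activates CDK1, had a level of 10.7 CPM in LNCaP and 5.69 CPM after treatment (log2 ratio -0.91, interval -1.11 to -0.71). CCNB1, cyclin B1, was at 108 and 80.2 CPM (-0.43), and CKS2, a small CDK-binding subunit, at 169 and 143 CPM (-0.24). All 5 members of the kinase and chromosomal passenger group were lower past the fold. They include PLK1, the polo-like kinase of mitotic entry (28.0 and 14.8 CPM, -0.93), and TPX2, the spindle factor that activates Aurora A (55.1 and 32.6 CPM, -0.76). In the checkpoint group 3 of 4 were lower past the fold. TTK, the kinase that starts checkpoint signaling, was at 7.57 and 3.80 CPM (-1.0, interval -1.24 to -0.76), and BUB3 was at 82.8 and 63.1 CPM (-0.39).

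The centromere and kinetochore group had all 5 members lower past the fold. CENPE, a kinesin that moves chromosomes along microtubules, showed the lowest ratio of the 40, at 65.0 and 30.7 CPM (-1.08, interval -1.16 to -1.0). Of the anaphase-promoting complex partners, CDC20 (58.9 and 36.5 CPM, -0.69) and UBE2C (65.3 and 45.6 CPM, -0.52) were past the fold, and PTTG1, the securin that holds separase inactive, was not (-0.21). Of the 8 spindle motors and microtubule proteins, 7 were lower past the fold. The exception was STMN1, stathmin, which destabilizes microtubules and was at 166 and 154 CPM. All 4 cytokinesis genes were lower past the fold, from KIF23 (-0.56), a kinesin of the central spindle, to PRC1 (-0.90), which bundles its microtubules. TOP2A, topoisomerase II alpha, was at 83.8 and 52.7 CPM (-0.67), and MKI67, the Ki-67 antigen, at 55.1 and 29.6 CPM (-0.90).

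**Figure D1:**
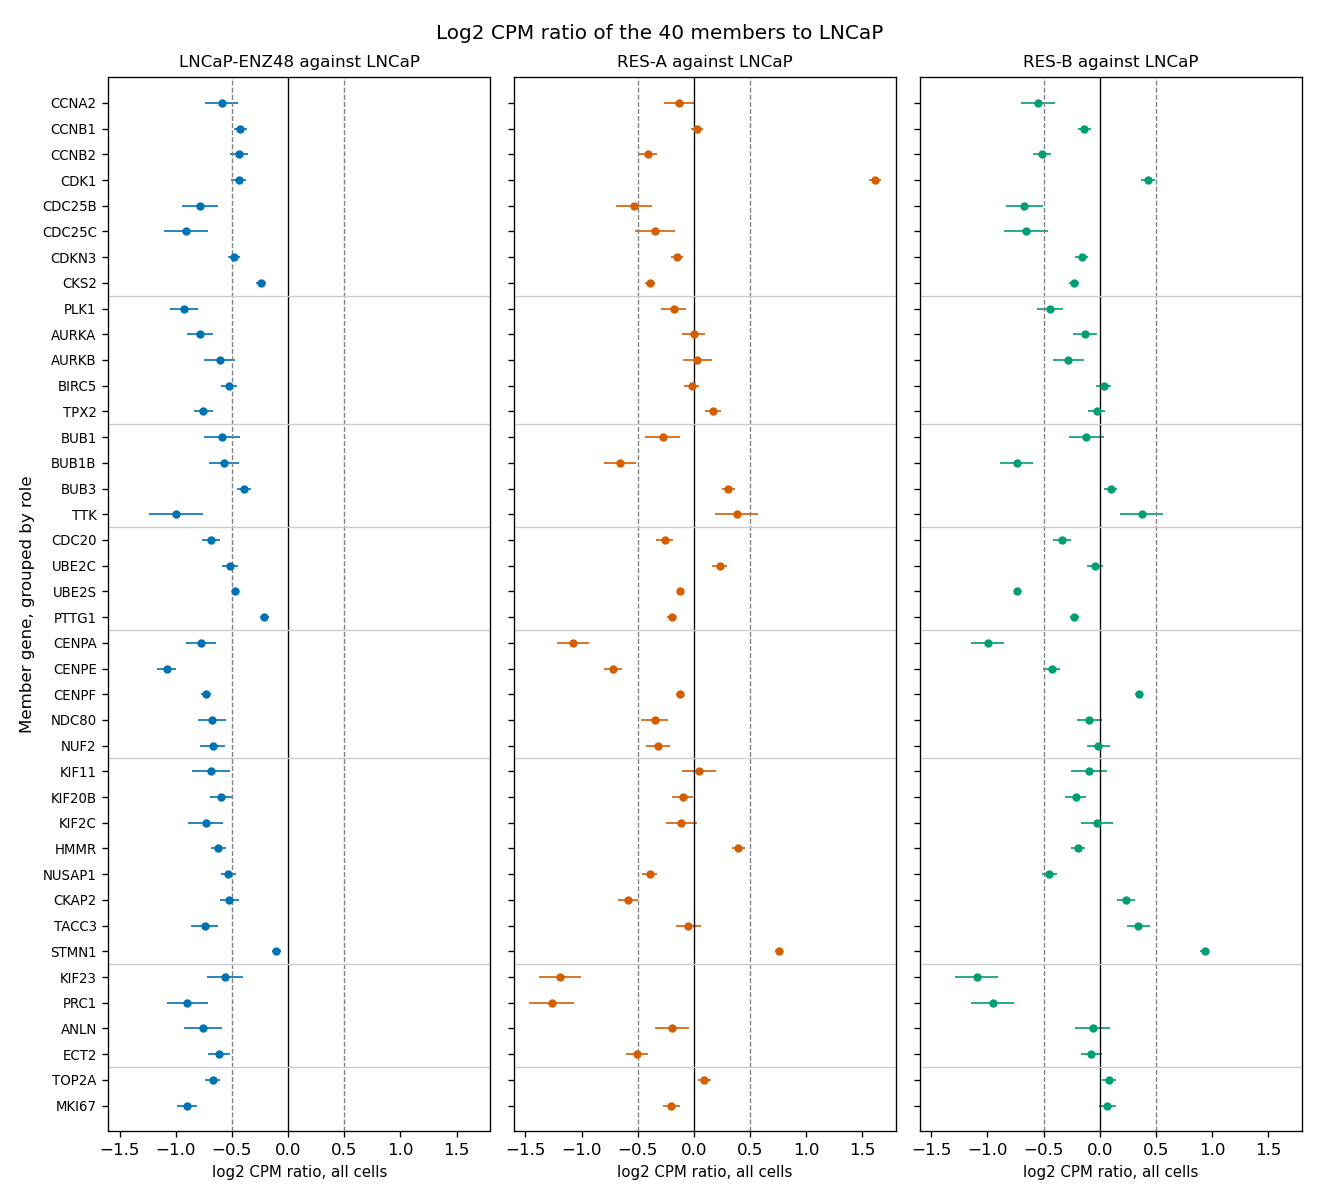
Log2 CPM ratio to LNCaP in all cells (x axis) for each of the 40 members (y axis, grouped by role), with bars for the 95% counting interval and dashed lines at 0.5 either way. All 40 points lie below 0 in LNCaP-ENZ48, while RES-A and RES-B hold points on both sides, with CDK1 and STMN1 highest and KIF23, PRC1 and CENPA lowest.

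Genes of related lists were read beside the members. Of 48 measured other mitotic genes, 34 were lower past the fold in LNCaP-ENZ48 and 0 higher (median -0.69), with FAM83D (-1.30) and DEPDC1 (-1.18) lowest and SPC24 (-0.23) and SKA2 (-0.21) highest. Of the condensin and cohesin genes 9 of 15 were lower, led by NCAPH (-1.08) and SGO1 (-0.97). The list for the anaphase-promoting complex itself had a median of -0.09, with 1 of 16 genes lower past the fold. That gene was FBXO5 (-0.67), which is an inhibitor of the complex and not a subunit. Among 13 regulators of G2/M genes only FOXM1 was lower past the fold (-0.75), with LIN9 next (-0.50). S phase genes had a median of -0.38, with 11 of 34 lower. Of 8 genes that restrain CDK1, 2 were lower, PKMYT1 (-0.74) and GADD45A (-0.55).

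To look within dividing cells, cells were chosen by at least 1 UMI of TOP2A and at least 1 of CENPF, after every cell had been thinned at random to 5000 UMIs so that depth would not set the share. Such cells, called gated cells here, numbered 1901. They made up 14.0% of LNCaP cells (250 of 1782, interval 12.4 to 15.7), 8.83% of LNCaP-ENZ48 cells (381 of 4315, 8.0 to 9.72), 15.1% of RES-A cells (692 of 4569, 14.1 to 16.2) and 14.2% of RES-B cells (578 of 4061, 13.2 to 15.3). The LNCaP-ENZ48 interval lay below the other 3, which overlapped each other. Without thinning the shares were 25.4, 13.5, 22.9 and 21.5% in the same order, with the deepest library first. With MKI67 and TPX2 as the choosing genes they were 7.69, 4.13, 7.84 and 7.78%.

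Free RNA can place UMIs in cells that do not express a gene, so the same choice was made among cells with no thinned UMI of MKI67, TPX2, UBE2C, CCNB1, BIRC5 and NUSAP1. Of these cells 0.368, 0.403, 0.872 and 0.780% were gated, at the same 5000 UMIs per cell. Taken singly, CENPF was detected in 5.33, 5.01, 8.48 and 11.1% of them and TOP2A in 2.02, 2.12, 3.69 and 3.37%. Leaving out cells with UMIs of those genes can also leave out cells that took up free RNA. These shares therefore do not measure what free RNA adds to the gated cells. Gated cells were deeper than the others, with a median of 31329 against 26707.5 UMIs in LNCaP, 15357 against 13606 in LNCaP-ENZ48, 14075.5 against 11952 in RES-A and 14116 against 12065 in RES-B. The upper UMI limits touched these cells: of the barcodes at or above them, 31.1, 13.4, 27.8 and 27.2% met the same gene rule. With 1 filter for all libraries the gated shares were 13.9, 9.16, 15.2 and 15%.

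**Figure D2:**
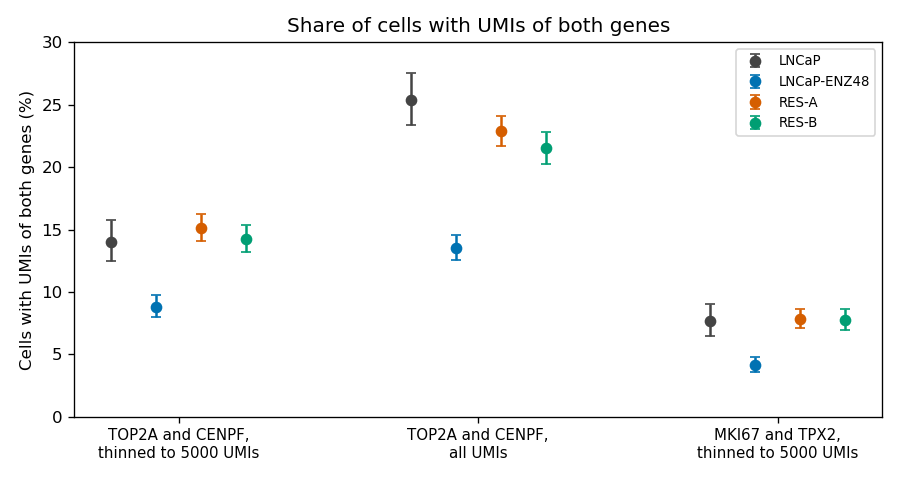
Share of kept cells with at least 1 UMI of both choosing genes (y axis, %) under 3 settings (x axis), 1 point per library with its exact binomial 95% interval. LNCaP-ENZ48 is lowest under each setting, at 8.83% against 14.0 to 15.1% in the thinned TOP2A and CENPF setting.

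The other 38 members, which the choice did not use, were found together in the gated cells. The median gated cell held UMIs of 20, 19, 17 and 18 of the 38 in the 4 libraries after thinning, against 2, 2, 3 and 3 in the other cells. At least 10 of the 38 were detected in 90.4, 90.3, 90.0 and 87.0% of gated cells and in 6.72, 4.55, 8.85 and 6.23% of the others. Just inside the choice, cells with exactly 1 UMI of each gene had medians of 10.5, 12, 10 and 9, and cells with only one of the genes had 7, 6, 7 and 5.

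Members differed in how far they were confined to gated cells. PLK1 was 16.1 to 39.4 times higher in gated than in other cells over the 4 libraries, CENPA, the centromeric histone, 16.2 to 36.3 times and UBE2C 13.6 to 29.1 times. BUB3 was 2.71 to 4.43 times higher, STMN1 2.74 to 5.21 times and UBE2S, the ubiquitin chain-elongating enzyme of the anaphase-promoting complex, 3.40 to 5.42 times. CDK1 differed between libraries, at 11.7, 17.3, 3.64 and 6.72 times. When 5390 genes were ranked by the lowest of the 4 ratios, 18 of the 38 members stood in the first 40, 32 in the first 100 and 38 in the first 200. The 10 highest genes that are no members were PIF1, KIF20A, FAM83D, ASPM, PSRC1, KIF18A, CDCA2, KIF14, DLGAP5 and HJURP. Cells were chosen by genes of the same program, so this order describes the cells and is no test.

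Within gated cells, LNCaP-ENZ48 was close to LNCaP. The 38 log2 ratios had a median of -0.07, equal to that of all 9671 genes measured there, and ran from -0.47 for CENPE to 0.31 for CKS2 and STMN1. None of the 38 was past the fold in either direction, against 3.03% of genes higher and 7.98% lower. CCNB1 was at 490 CPM in gated LNCaP cells and 542 CPM in gated cells after treatment, and TPX2 was at 259 and 244 CPM. Counting intervals lay above 0 for 8 members and below 0 for 10. Such intervals were not counted over all genes, so these numbers have no background share. Gated cells held 15.7% of the UMIs of LNCaP and 9.68% of those of LNCaP-ENZ48. When the LNCaP-ENZ48 levels of gated and other cells were combined at the LNCaP share, the median of the 38 moved from -0.61 to -0.18 and the number lower past the fold from 29 to 1. TOP2A and CENPF are members themselves, so less RNA of the members per cell would also lower the gated share. The split by gate therefore cannot tell fewer dividing cells from less RNA per cell. In the other cells 8 of 26 members with enough UMIs were lower past the fold, against 4.84% of the 9492 genes measured there, and 0 were higher, against 2.13%. The median of the 26 was -0.41, against -0.07 over all genes. Members with a mean under 5 CPM in the other cells were left out of this count. Of these, CDC25C (-1.26), TTK (-0.90), CENPA (-0.77), PLK1 (-0.74), PRC1 (-0.74) and CDC25B (-0.72) were lower past the fold. So were KIF11 (-0.67), ANLN (-0.63), BUB1 (-0.61) and KIF2C (-0.59), while CCNA2 (-0.44) and KIF23 (-0.46) were not.

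**Figure D3:**
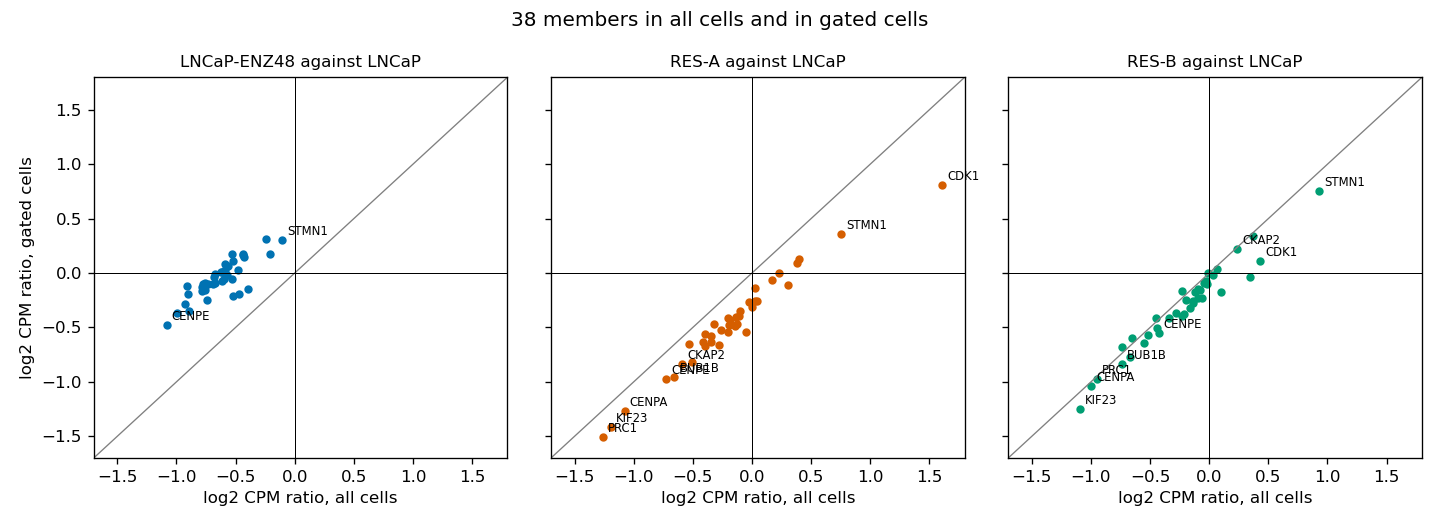
Log2 CPM ratio to LNCaP in gated cells (y axis) against that in all cells (x axis) for 38 members, with the line of equal values. For LNCaP-ENZ48 the points lie left of 0 on the x axis (median -0.61) and around 0 on the y axis (median -0.07), while for RES-A and RES-B they lie along the line or below it.

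In the resistant lines the members differed in direction. The comparisons of RES-A and RES-B share the LNCaP library, so their values are set side by side without counting what they have in common. In RES-A, 2 members were higher past the fold, against 15.6% of all genes, and 8 were lower, against 16.1%, with a median of -0.16 (0.01 over all genes). In RES-B, 1 was higher, against 19.4%, and 9 were lower, against 11.6%, with a median of -0.13 (0.11 over all genes).

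CDK1, the kinase of mitotic entry (chr10:60778331-60794852, plus strand, GRCh38), was at 72.8, 53.6, 222 and 98.1 CPM. RES-A was thus the highest, with a log2 ratio to LNCaP of 1.61 (interval 1.56 to 1.67), and RES-B followed at 0.43 (0.37 to 0.49). The difference was larger outside the gated cells. There CDK1 was at 27.1, 20.8, 153 and 51.1 CPM, a log2 ratio of 2.50 for RES-A (0.92 for RES-B), against 318, 359.6, 559 and 344 CPM in gated cells (0.81 and 0.11). Among cells with no thinned UMI of the 6 division genes named above, CDK1 was detected in 5.06, 4.97, 37.6 and 13.1%. PLK1 was detected in 0.460, 0.370, 0.912 and 0.616% of the same cells. Other members were common there, with BUB3 in 21.4, 20.3, 28.5 and 24.5% and UBE2S in 47.2, 45.0, 57.6 and 36.1%. Free RNA can add to all of these shares. Of the cyclins that pair with CDK1, CCNB1 was at 110 CPM in RES-A (0.03 over all cells) and CCNA2, cyclin A2, at 15.4 CPM (-0.13). Outside the gated cells their log2 ratios were 0.41 (interval 0.31 to 0.50) and 0.32 (0.05 to 0.60).

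STMN1 (chr1:25884181-25906991, minus strand) was at 166, 154, 280.4 and 317 CPM. Both resistant lines were higher than LNCaP, by log2 ratios of 0.76 and 0.93. In other cells it was at 111, 110, 217 and 229 CPM, and in gated cells at 462, 571, 592 and 778 CPM. Relative to the genes around it, at 0.04 in RES-A and 0.45 in RES-B against all genes, STMN1 was at 0.71 and 0.37, so in RES-B it was no longer past the fold. UMIs of STMN1 were found in 25.2, 28.0, 51.0 and 52.1% of cells without the 6 division genes, a share to which free RNA can add.

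The lowest ratios belonged to genes of cytokinesis and the centromere. CENPA (chr2:26764289-26801067, plus strand) was at 22.2, 13.0, 10.5 and 11.1 CPM, with log2 ratios of -1.07 for RES-A (interval -1.22 to -0.93) and -1.0 for RES-B (-1.14 to -0.85). KIF23 (chr15:69414246-69448427, plus strand) was at 14.1, 9.53, 6.16 and 6.58 CPM (-1.19 and -1.10), and PRC1 (chr15:90966040-90995629, minus strand) at 12.8, 6.85, 5.32 and 6.60 CPM (-1.26 and -0.95). BUB1B, the checkpoint protein BubR1, was at 19.3, 13.0, 12.3 and 11.6 CPM (-0.66 and -0.74). CDC25B, another phosphatase that activates CDK1, was at -0.53 and -0.67. The remaining members lower past the fold were CENPE (-0.72), CKAP2 (-0.59) and ECT2 (-0.50) in RES-A, and UBE2S (-0.73), CDC25C (-0.66), CCNA2 (-0.55) and CCNB2 (-0.51) in RES-B.

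Within gated cells these members stayed low. CENPA was at 114, 106, 47.6 and 55.7 CPM there, KIF23 at 68.5, 71.8, 25.7 and 28.8 CPM, and PRC1 at 54.3, 42.6, 19.1 and 27.7 CPM. For CENPA and KIF23 the libraries formed a high pair, LNCaP and LNCaP-ENZ48, and a low pair, RES-A and RES-B. Of the 38 members, 17 were lower past the fold in gated RES-A cells, against 22.7% of all genes, and 1, CDK1, was higher, against 14.9%. The median was -0.47, against -0.08 over all genes. This count rests on the thinning: without it 7 were lower and the median was -0.26, and with MKI67 and TPX2 as the choosing genes the median was -0.59. In gated RES-B cells 11 were lower, against 14.8%, and 1, STMN1, was higher (0.75), against 17.4%. The median was -0.25 (0.04 over all genes), and without thinning it was -0.09 with 6 lower. Leaving out the 5 members on chromosome 15, described below, left 7 lower in RES-B.

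Outside the gated cells the 26 members of RES-A with enough UMIs leaned the other way. There 7 of 26 were higher past the fold, against 16.5% of genes, and 0 were lower, against 15.1%, with a median of 0.18 (0.03 over all genes). The 7 were CDK1 (2.50), STMN1 (0.97), HMMR (0.82), AURKA (0.65), UBE2C (0.63), TACC3 (0.57), a spindle pole and microtubule protein, and BUB3 (0.53). Members under the minimum level there were not counted. Of these, PRC1 (-1.01), KIF23 (-0.86) and CENPA (-0.77) were lower past the fold in RES-A, so they stayed low, and TTK (0.85) was higher. In RES-B 3 were higher, against 20.4%, and 3 were lower, against 11.5%, with a median of 0.02 (0.12 over all genes). Of the members under the minimum, PRC1 (-0.97), CENPA (-0.96), CDC25C (-0.89), KIF23 (-0.75) and CDC25B (-0.54) were lower past the fold in RES-B. For RES-B against RES-A 1 was higher, against 16.4%, and 4 were lower, against 8.94%. Under the minimum, CDC25C (-0.81), PLK1 (-0.70) and CCNA2 (-0.66) were lower past the fold in that comparison.

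**Figure D4:**
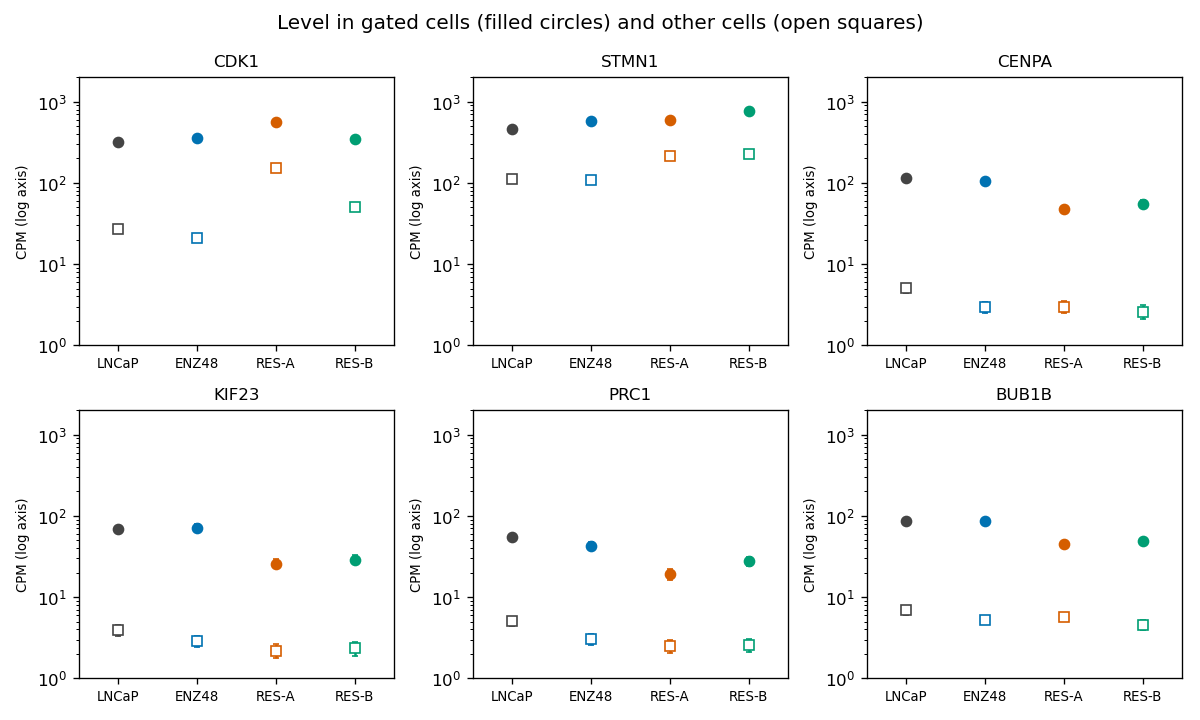
Level in CPM (y axis, log scale) of 6 members in gated cells (filled circles) and other cells (open squares) of the 4 libraries (x axis), with exact Poisson 95% intervals. CDK1 in other cells is highest in RES-A (153 CPM against 27.1 CPM in LNCaP), and KIF23 in gated cells is at 25.7 and 28.8 CPM in RES-A and RES-B against 68.5 CPM in LNCaP.

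The order of late and early genes among the members was read as the UMIs of CDC20, PLK1, CCNB1, AURKA, CENPA and CENPE over those of CCNA2, CDK1, KIF11, NDC80 and NUF2 in gated cells. This ratio was 2.11 in LNCaP (interval 2.04 to 2.18), 1.88 in LNCaP-ENZ48 (1.81 to 1.95), 1.25 in RES-A (1.21 to 1.28) and 1.65 in RES-B (1.59 to 1.70). Without CDK1, a choice made after seeing the data, the ratios were 3.79 (3.64 to 3.94), 3.60 (3.44 to 3.77), 3.66 (3.51 to 3.82) and 3.28 (3.15 to 3.42), so RES-A then overlapped LNCaP, while RES-B stayed below LNCaP and was the lowest of the 4.

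Several of the low members lie on 1 chromosome. The 40 members are on 17 chromosomes, and chromosome 15 holds 5 of them: CCNB2, BUB1B, NUSAP1, KIF23 and PRC1. All 5 were below LNCaP in RES-A and in RES-B, with 3 and 4 past the fold. The chromosome as a whole was low as well. Its 291 measured protein-coding genes had a median log2 ratio that was -0.48 in RES-A, and -0.41 in RES-B, relative to all measured protein-coding genes, and 47.4 and 29.9% of them were lower past the fold. The measured protein-coding genes around each of the 5 (50 genes, and 42 for PRC1, which is near the end of the chromosome) had medians of -0.43 to -0.61 in RES-A and -0.29 to -0.48 in RES-B, on the same relative scale.

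On that scale CCNB2 (-0.42 in RES-A) and NUSAP1 (-0.41), a spindle microtubule binder, were near the genes around them (-0.53 and -0.51). KIF23 (-1.20) and PRC1 (-1.27) were lower than theirs (-0.43 and -0.61). Other members, some of them named here, lay in regions that were shifted in 1 line or both. CKS2 on chromosome 9 was at -0.41 in RES-A among genes at -0.56, and NDC80 on chromosome 18 at -0.36 among genes at -0.43. In RES-B, CENPF, CDC20 and KIF2C on chromosome 1 were at 0.24, -0.45 and -0.14 among genes at 0.37, 0.31 and 0.31. CKAP2, a microtubule-associated protein on chromosome 13, was at -0.60 in RES-A among genes at -0.48, and at 0.12 in RES-B among genes at 0.02. TTK on chromosome 6 was at 0.37 and 0.26 among genes at 0.55 and 0.54. CENPA and CDK1 were different, with genes around them at 0.12 and 0.04 in RES-A and 0.07 and 0.04 in RES-B.

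When the median of the genes around (50 genes for 36 members and 33 to 42 for NDC80, MKI67, TACC3 and PRC1) was subtracted from each member, a step added after seeing the data, 2 members were higher past the fold in RES-A, against 14% of all genes so treated, and 5 were lower, against 13.8%. The 5 were CENPA (-1.20), KIF23 (-0.77), CENPE (-0.72), PRC1 (-0.66) and CDC25B (-0.54). In RES-B 0 were higher, against 11.7%, and 8 were lower, against 12.2%, with CENPA (-1.18) and KIF23 (-0.92) lowest. In LNCaP-ENZ48, 22 members were lower, against 3.79%, and 0 higher, against 2.76%. For RES-B against RES-A 3 were lower, against 8.4%, and 0 higher, against 9.1%. DNA copy number was not measured here, and the part of position in these values was not tested.

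**Figure D5:**
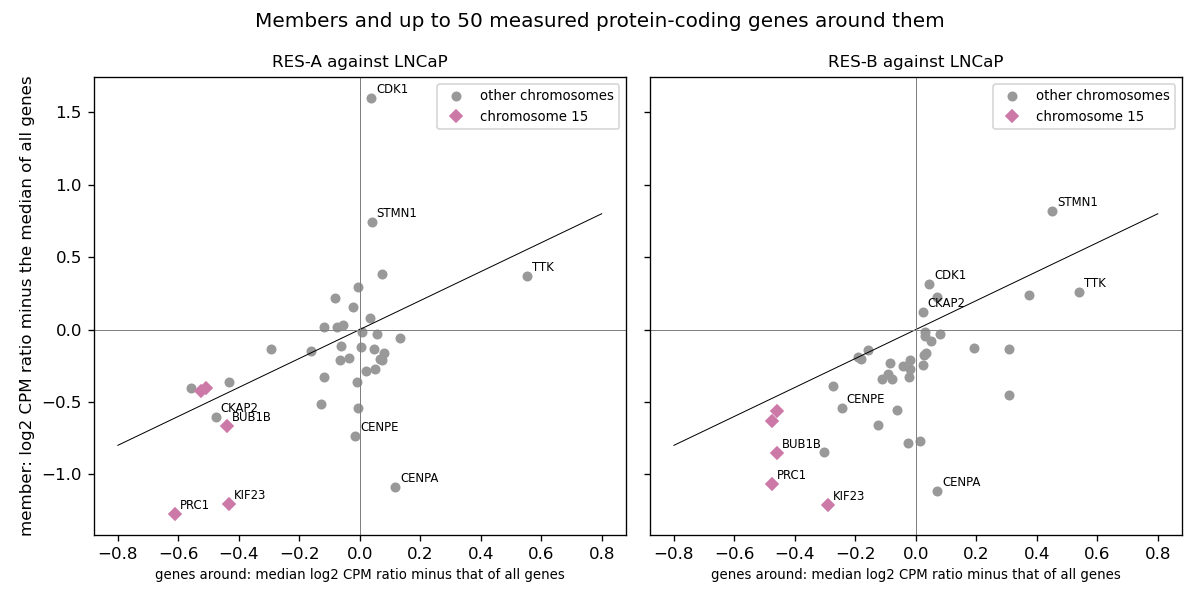
Log2 CPM ratio to LNCaP of each member (y axis) against the median of up to 50 measured protein-coding genes around it (x axis), both minus the median of all measured protein-coding genes, with the line of equal values. The 5 members on chromosome 15 (diamonds) lie left of 0 in both lines, whereas CENPA and CDK1 lie near 0 on the x axis and far from 0 on the y axis in RES-A.

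Between the resistant lines, RES-B against RES-A, 1 member was higher past the fold, against 16.9% of all genes, and 3 were lower, against 8.62%. The median was -0.02 (0.09 over all genes). CKAP2 was higher, at 57.5 CPM against 32.5 CPM (0.82, interval 0.74 to 0.91). CDK1 (-1.18), UBE2S (280.4 and 429 CPM, -0.61) and HMMR (69.9 and 105 CPM, -0.59), a spindle-associated hyaluronan receptor, were lower. In gated cells 4 were higher, against 20.3%, and 1 was lower, against 9.05%. The 4 were CKAP2 (1.05), ECT2 (0.66), PRC1 (0.54) and TACC3 (0.50), and the lower one was CDK1 (-0.70). The number higher depended on the choice of cells, at 2 without thinning and 10 with MKI67 and TPX2 as the choosing genes.

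Related lists in the resistant lines are read against the shares of all genes given above for these comparisons (15.6% higher and 16.1% lower in RES-A, 19.4 and 11.6% in RES-B). Other mitotic genes had 3 higher and 9 lower of 48 in RES-A (median -0.18) and 6 higher and 13 lower in RES-B (-0.28). DEPDC1 was highest in both, at 0.93 and 1.73, with SKA1 lowest in RES-A (-1.18) and KNL1 lowest in RES-B (-1.0). S phase genes were higher past the fold in 17 of 34 in RES-A (median 0.46) and 13 of 34 in RES-B (0.19), with 0 and 1 lower. PCNA, the sliding clamp of DNA polymerase, was at 1.29 in RES-A, and CCNE2, cyclin E2, at 1.27 and 1.29. Genes that restrain CDK1 had 2 higher and 3 lower of 8 in RES-A (median 0.04). In RES-B they had 0 higher and 1 lower (-0.16). The highest ratio of this list was 0.75 in RES-A and 0.31 in RES-B. WEE1, the kinase that inhibits CDK1, was the lowest in RES-A (-0.92). CDKN1A, which encodes the CDK inhibitor p21, was the lowest in RES-B (-1.59). In the regulators of G2/M genes, MYBL2, which encodes B-MYB, was at 0.98 and RBL2 at -0.89 in RES-A.

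Some member counts carry a limit from the annotation. On the strand of the gene, BUB1B overlaps PAK6 and BUB1B-PAK6, CENPA overlaps SLC35F6, and NUSAP1 overlaps OIP5-AS1. PRC1 and NUSAP1 each overlap an unnamed protein-coding gene, and CCNB2 overlaps an unnamed long noncoding RNA. PTTG1, UBE2S and CKS2 have near copies elsewhere in the genome. Reads shared by such genes are not counted, so the levels of these members are uncertain as levels.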

How the data were processed

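Sorted living cells were sequenced as droplet-based 3′ libraries, 1 per group, with groups taken from the titles. The deposited values are UMI counts per gene and barcode, which the authors made with Cell Ranger (version 3.0.2) on the prebuilt human reference GRCh38. The members and the gene lists were chosen with earlier results of these data known.

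The study's own cell filters were applied. LNCaP had 3000 to 7000 genes, 16000 to 50000 UMIs and under 15% mitochondrial counts. The others had 1500 to 5000 genes, 5000 to 25000 UMIs and under 15, 17 or 20% (LNCaP-ENZ48, RES-A, RES-B). This kept 1782 of 2358, 4315 of 4812, 4569 of 5156 and 4061 of 4907 barcodes. Scrublet in scanpy 1.11.5 marked 3 to 6 cells per library, too few for it to have worked, so no doublets were removed, and an alternative left out the highest scores. Pairs of libraries shared 2 to 9 barcodes among kept cells and 0 among gated cells.

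UMIs were summed per library as CPM with exact Poisson intervals. Ratios have exact conditional binomial (Clopper-Pearson) intervals and shares exact binomial ones. UMI counts are read as molecules, and intervals cover counting error only. No member had 0 UMIs, so no floor of 3 UMIs was used for one. Calls used genes whose mean over the 4 libraries reached 5 CPM and a log2 ratio of at least 0.5 in size. The ratio script was checked on simulated counts. Gated cells were chosen on thinned counts and their levels taken from all UMIs. All 40 members are accounted for. A marker from the list of the cell type is not reported here. Genes of the other lists are named by the highest and lowest 2 ratios, or fewer, and genes found in gated cells by the 10 highest ratios among those with a mean of 20 CPM there. Alternatives were edgeR 4.0.16 (TMM) and DESeq2 1.42.0 size factors, other minimums, folds, filters and gates. Positions came from GENCODE 44 on GRCh38, in which 33113 gene IDs were found. Its build matches the reference named by the authors and its release is later.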

Additional observations from a re-analysis of the deposited data

Results flagged for a closer look

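Members with opposite directions in the 2 resistant lines are given here. CENPF, a kinetochore protein, was at -0.12 in RES-A but 0.35 in RES-B as a log2 ratio to LNCaP, with levels of 206 (LNCaP), 189 (RES-A) and 262 CPM (RES-B). HMMR was at 0.39 in RES-A and -0.19 in RES-B. CKAP2 was at -0.59 in RES-A and 0.23 in RES-B. All 6 counting intervals excluded 0. Relative to up to 50 genes around, CENPF was at -0.18 in RES-A, with -0.14 in RES-B, so its directions were then the same. HMMR (0.31 and -0.22) and CKAP2 (-0.12 and 0.10) kept opposite signs. Each line is 1 library and both are set against the same LNCaP library, so the difference was not tested.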

How the results depend on the processing

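No paired analysis was possible because each group is 1 library. Limits are the 1 library per group and the depth, which differs between LNCaP and the other libraries. Over all alternatives for the members as a group, 216 values stayed close to the value reported and 68 moved; for single members 646 stayed close, 150 moved and 4 reversed.

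Where 4 values are given, LNCaP comes first, then LNCaP-ENZ48, then RES-A, and RES-B last. The gated shares were 25.4, 13.5, 22.9 and 21.5% without thinning, 6.96, 3.82, 7.38 and 7.36% at 2000 UMIs, 7.58, 4.68, 7.70 and 7.39% with at least 2 UMIs of each gene, and 7.69, 4.13, 7.84 and 7.78% with MKI67 and TPX2. LNCaP-ENZ48 was lowest in each. The late over early ratio in the same order was 1.98 (LNCaP), 1.12 (RES-A) and 1.55 (RES-B) without thinning, 2.25, 2.00, 1.36 and 1.73 at 2000 UMIs, 2.21, 1.96, 1.39 and 1.74 with at least 2 UMIs, 1.99 (LNCaP) and 1.59 (RES-B) with MKI67 and TPX2, 1.95 in LNCaP-ENZ48 with another seed, and 3.79, 3.60, 3.66 and 3.28 without CDK1.

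In all cells, TMM scaling moved the median of all genes by -0.11 for RES-B and DESeq2 size factors by 0.10 for LNCaP-ENZ48. The median of the members became -0.52 in LNCaP-ENZ48 (DESeq2) and -0.24 in RES-B (TMM). BUB3 in RES-B reversed from 0.10 to -0.010 (TMM) and -0.0026 (DESeq2), and TOP2A from 0.08 to -0.023 (TMM) and -0.015 (DESeq2). Relative to up to 50 genes around, an alternative added after seeing the data, the median was -0.51 in LNCaP-ENZ48 and -0.22 for RES-B against RES-A, and the counts were 5 lower in RES-A, 0 higher in RES-B and 0 higher for RES-B against RES-A. With a minimum of 20 CPM, 18 members were lower in LNCaP-ENZ48, 3 in RES-A and 2 for RES-B, because fewer genes were counted. At a log2 fold of 1, 1 was lower for LNCaP-ENZ48, 3 for RES-A, 1 for RES-B, 1 was higher in RES-A and 0 in RES-B, and RES-B against RES-A had 0 higher and 1 lower. With 1 filter for all libraries 2 were higher in RES-B and 2 for RES-B against RES-A, as with no cell filter for the latter.

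In gated cells without thinning, LNCaP-ENZ48 had a median of 0.10, RES-A of -0.26 and RES-B of -0.089, with 1 higher in LNCaP-ENZ48, 7 lower in RES-A, 6 lower in RES-B and 2 higher for RES-B against RES-A. With MKI67 and TPX2 the medians were -0.59 in RES-A and 0.36 for RES-B against RES-A, with 10 higher and 0 lower in the latter. With 1 filter or no cell filter 2 were higher there. Without the chromosome 15 members, left out after seeing the data, 7 were lower in RES-B. The causes of these moves were not tested.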
